A study of Mus musculus with 4 samples.

Results

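Dendritic cells capture antigen in the airways and lung tissue and carry it to the draining lymph nodes, where they prime T cells. The 9 genes described here mark or build their subsets, namely Clec9a, Flt3, Itgae, Cd209a, Siglech, Zbtb46, Batf3, Irf8 and Fscn1. They were chosen by name from the gene symbols of a count table of 49315 genes, and each matched 1 row with reads in all 4 libraries. All 9 passed the filter of at least 1 CPM (reads per 1000000 reads, after scaling) in at least 1 library, and 14840 genes in all did so. On GRCm38 the annotation places these protein-coding genes at chr6:129408862-129424763 (Clec9a), chr5:147330741-147400489 (Flt3), chr11:73090583-73147446 (Itgae), chr8:3743397-3748984 (Cd209a), chr7:55768178-55778925 (Siglech), chr2:181387762-181459426 (Zbtb46), chr1:191097847-191108945 (Batf3), chr8:120736358-120756694 (Irf8) and chr5:142960343-142973185 (Fscn1).

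The libraries were made from RNA of sorted mouse lung ILC2s, group 2 innate lymphoid cells, which are tissue lymphocytes without rearranged antigen receptors. There was 1 library per group. PBS-WT came from C57BL/6 wild-type mice given PBS, PBS-HPS1 from Hps1-/- mice given PBS, BLEO-WT from wild-type mice given bleomycin, and BLEO-HPS1 from Hps1-/- mice given bleomycin, a DNA-damaging drug that injures the lung and leaves fibrosis. Hps1 encodes a subunit of a complex that acts in the making of lysosome-related organelles, and its loss underlies Hermansky-Pudlak syndrome. All groups share the C57BL/6 background. The labels give no dose, route, day, age or number of mice, and the groups stand for whichever animals were pooled. By the study's methods the cells were enriched for innate lymphoid cells, sorted as lineage-negative, Thy1.2+, ICOS+, T1/ST2+ cells and then cultured with IL-2 and serum before RNA was extracted. The lineage antibodies include CD11b, B220 and Ly6C, which many conventional and plasmacytoid dendritic cells carry, and none against CD11c.

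Conventional dendritic cells arise from bone marrow precursors that need the receptor FLT3, and the transcription factor ZBTB46 separates them from monocytes and macrophages. The cDC1 subset depends on IRF8 and BATF3, takes up dead cells through CLEC9A and cross-presents to CD8+ T cells, and in the lung it carries the integrin chain CD103, encoded by Itgae. The cDC2 subset is more heterogeneous and overlaps in markers such as CD209a with monocyte-derived cells. Plasmacytoid dendritic cells (pDC) make type I interferon and carry SIGLECH, and dendritic cells that mature and migrate to lymph nodes turn on the actin-bundling protein fascin, encoded by Fscn1.

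The libraries held 72513619 to 87638154 reads in genes, so that 3 reads, the limit that a count of 0 allows, correspond to 0.0303 to 0.0475 CPM. The number of sorted cells differed from group to group, at 22405 (PBS-WT), 38873 (PBS-HPS1), 84166 (BLEO-WT) and 128647 cells (BLEO-HPS1), and cannot be told apart from genotype and treatment. The targeted gene went with the labels: Hps1 was at 38.3 CPM in PBS-WT and 48.4 CPM in BLEO-WT, against 16.6 CPM in PBS-HPS1 and 21.3 CPM in BLEO-HPS1, and a count per gene does not show which part of the transcript was read. The labelled cell type was only partly borne out by marker levels. Per kilobase of transcript, the ILC2 factors Gata3 and Rora ranged from 7.80 to 12.2 CPM and from 1.21 to 7.21 CPM, whereas the macrophage genes Adgre1, which encodes F4/80, and Mrc1 ranged from 53.2 to 137 CPM and from 49.4 to 131 CPM. None of the listed marker genes of macrophages, monocytes, T cells, B cells, NK cells, neutrophils, endothelial cells or fibroblasts was at 0 in every library. The genes of antigens that the gate selects against were also read, with Cd3e at 67.6 to 135 CPM and Itgam, which encodes CD11b, at 61.5 to 236 CPM. The 9 dendritic cell genes are therefore described as levels in these sorted preparations, and whether a difference reflects fewer dendritic cells or less RNA per cell cannot be told apart in bulk RNA.

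Together the 9 genes took 0.0378% to 0.0530% of the reads of a library. Their summed level was 452 CPM in PBS-WT, 375 CPM in PBS-HPS1, 422 CPM in BLEO-WT and 650 CPM in BLEO-HPS1. Irf8 made up 45.3% to 53.6% of these reads, so the sum mainly follows that gene. Without Irf8 the sum was 247 CPM in PBS-WT, 186 CPM in PBS-HPS1, 196 CPM in BLEO-WT and 326 CPM in BLEO-HPS1. BLEO-HPS1 had the highest sum. The lowest depended on the scaling: PBS-HPS1 with TMM factors, but BLEO-WT by share of reads, at 0.0378% against 0.0478% in PBS-HPS1.

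Levels can be set between genes only per length of transcript. In PBS-WT the order by CPM per kilobase was Cd209a at 64.9, Irf8 at 59.0, Fscn1 at 17.0, Batf3 at 12.2, Itgae at 8.78, Flt3 at 7.81, Zbtb46 at 2.96, Siglech at 2.60 and Clec9a at 1.80. In BLEO-HPS1 it was Irf8 at 93.4, Fscn1 at 60.5, Cd209a at 29.3, Batf3 at 18.5, Itgae at 13.7, Flt3 at 7.36, Zbtb46 at 2.26, Siglech at 1.57 and Clec9a at 0.774 CPM per kilobase. Fscn1 stood above Cd209a in BLEO-HPS1 and below it in the other libraries, where Cd209a was at 46.8 CPM per kilobase against 14.2 in PBS-HPS1 and at 24.2 against 23.2 in BLEO-WT. Irf8 lay above 92.2% to 93.7% of the tested genes in each library, and Clec9a above only 15.1% to 26.7%. Irf8, Cd209a and Fscn1 led in every library, and Siglech and Clec9a came last. With 1 library per group there is no spread between mice against which neighbours in these orders could be compared.

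**Figure D1:**
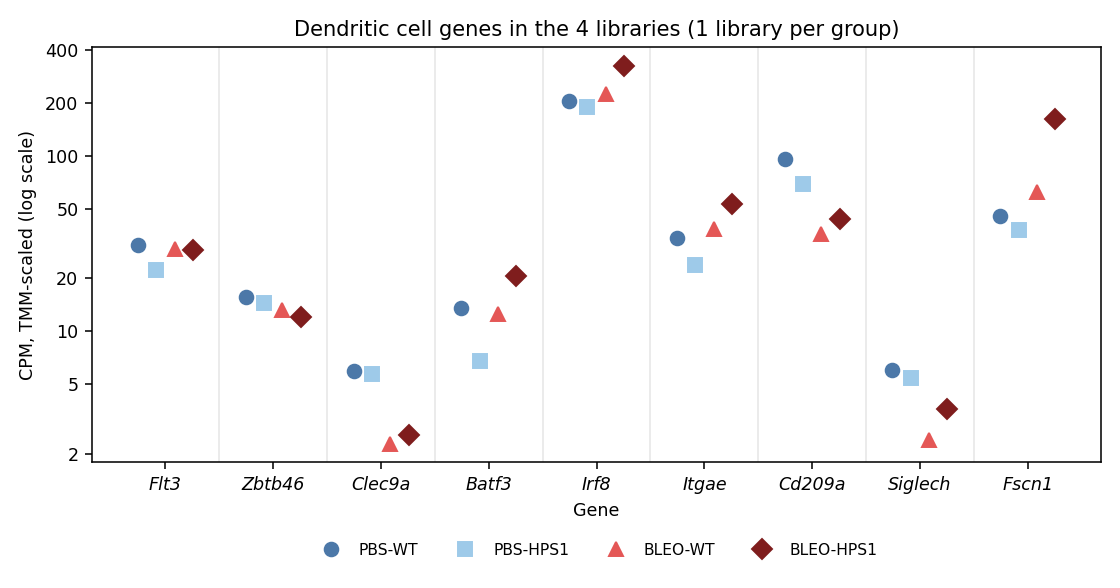
Level of each of the 9 genes (x axis) in CPM after TMM scaling (y axis, log scale), with 1 point per library and colour and shape for the group. Flt3 and Zbtb46 hold within 22.2 to 30.8 and 11.98 to 15.7 CPM, Cd209a, Siglech and Clec9a are lower in both bleomycin libraries, and Fscn1 reaches 162 CPM in BLEO-HPS1.

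With TMM factors the general dendritic cell genes differed least between libraries. Flt3, the cytokine receptor that precursors and conventional dendritic cells need, was at 30.8 CPM (2404 reads) in PBS-WT, 22.2 CPM (2203 reads) in PBS-HPS1, 29.4 CPM (2307 reads) in BLEO-WT and 29.1 CPM (1836 reads) in BLEO-HPS1. With TMM factors PBS-HPS1 was the low library, whereas with total counts as the only scaling the level was 33.2 and 28.4 CPM after PBS in wild-type and Hps1-/- mice and 26.3 and 23.7 CPM after bleomycin. Zbtb46, the factor that sets conventional dendritic cells apart from monocytes and is also expressed in endothelium, was at 15.7 CPM in PBS-WT, 14.5 CPM in PBS-HPS1, 13.2 CPM in BLEO-WT and 11.98 CPM in BLEO-HPS1. Its highest and lowest libraries differed by 1.31-fold, the least of the 9 genes with TMM factors. With total counts they differed by 1.89-fold, and Irf8 at 1.31-fold and Flt3 at 1.398-fold varied least. The summed level of 10 endothelial marker genes ranged from 893 to 1130 CPM, and their part in the Zbtb46 reads was not tested.

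The cDC1 genes did not move as a block. Clec9a, the receptor for actin exposed on dead cells, was at 5.93 CPM (462 reads) in PBS-WT, 5.73 CPM (567 reads) in PBS-HPS1, 2.28 CPM (179 reads) in BLEO-WT and 2.55 CPM (161 reads) in BLEO-HPS1. Both bleomycin libraries lay below both PBS libraries. The gene shares 184 exon bases with Clec1b on the same strand, whose reads went from 1572 in PBS-WT and 1485 in PBS-HPS1 to 320 and 151 in BLEO-WT and BLEO-HPS1, and how reads in the shared bases were assigned is not given in the sources used here. Batf3, the AP-1 family factor that cDC1 need and that activated T cells express too, was at 13.5 CPM (1056 reads) in PBS-WT, 6.78 CPM (671 reads) in PBS-HPS1, 12.5 CPM (981 reads) in BLEO-WT and 20.5 CPM (1297 reads) in BLEO-HPS1. The lowest and the highest levels were the Hps1-/- libraries, with the wild-type libraries close together between them. Irf8, needed by cDC1 and pDC and expressed by macrophages and B cells as well, was at 205 CPM (15966 reads) in PBS-WT, 189 CPM (18755 reads) in PBS-HPS1, 226 CPM (17738 reads) in BLEO-WT and 324 CPM (20473 reads) in BLEO-HPS1. Itgae, whose product CD103 is carried by lung cDC1 and by tissue T cells, was at 33.8 CPM (2632 reads) in PBS-WT, 23.96 CPM (2372 reads) in PBS-HPS1, 38.4 CPM (3011 reads) in BLEO-WT and 52.7 CPM (3331 reads) in BLEO-HPS1. Batf3, Irf8 and Itgae shared the order of their libraries at both ends, lowest in PBS-HPS1 and highest in BLEO-HPS1. Clec9a did not have this order, while Fscn1, a gene of mature dendritic cells, did. For Irf8 this order rests on the scaling, since with total counts alone its log2 ratio of PBS-HPS1 to PBS-WT was 0.13. For Batf3 it is lost after correction for transcript GC content and length, where BLEO-HPS1 was at -0.06 against BLEO-WT and BLEO-WT at -0.44 against PBS-WT.

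Cd209a, a C-type lectin of cDC2 and monocyte-derived cells, was at 96.2 CPM (7501 reads) in PBS-WT, 69.4 CPM (6872 reads) in PBS-HPS1, 35.9 CPM (2816 reads) in BLEO-WT and 43.5 CPM (2747 reads) in BLEO-HPS1. Siglech, the sialic acid-binding receptor of pDC, was at 5.99 CPM (467 reads) in PBS-WT, 5.37 CPM (532 reads) in PBS-HPS1, 2.38 CPM (187 reads) in BLEO-WT and 3.61 CPM (228 reads) in BLEO-HPS1. For both genes each bleomycin library lay below each PBS library, as it did for Clec9a. Fscn1, the fascin gene of mature dendritic cells, was at 45.4 CPM (3539 reads) in PBS-WT, 37.9 CPM (3756 reads) in PBS-HPS1, 62.1 CPM (4867 reads) in BLEO-WT and 162 CPM (10220 reads) in BLEO-HPS1. Its highest and lowest libraries differed by 4.26-fold, the most of the 9 genes with TMM factors. Under total counts Fscn1 spanned 2.73-fold, less than Clec9a at 3.57-fold, Cd209a at 3.22-fold and Siglech at 3.21-fold. Fascin is also made outside the dendritic cell lineage, in stromal cells among others, and the summed level of 8 fibroblast marker genes was 178 CPM in PBS-WT, 318 CPM in PBS-HPS1, 557 CPM in BLEO-WT and 2727 CPM in BLEO-HPS1. The part of these cells in the Fscn1 reads was not tested.

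The comparison of PBS-HPS1 with PBS-WT asks whether loss of Hps1 alters these genes without injury. No gene of the 9 was 2-fold or more higher or lower, where 2.16% of all tested genes were higher and 3.11% lower by that much. Batf3 came closest, with a log2 ratio of -0.997 (95% interval -1.14 to -0.86, from the reads alone) that falls just short of 2-fold. Itgae at -0.49, Cd209a at -0.47 and Flt3 at -0.47 followed, and Clec9a at -0.05 and Siglech at -0.16 had intervals that include 0. All 9 log2 ratios were below 0 with TMM factors, but the median over all tested genes was -0.19 as well, and with total counts as the only scaling, or with upper-quartile factors, 4 of the 9 were above 0. Relative to the median of all genes 4 of the 9 were above and 5 below with TMM factors. A change of scaling shifts all genes about alike, so this count hardly depends on it. After correction for transcript GC content and length 3 were above the median, and without the filter on level 0 were. The groups hold 1 library each, so no test could be made here or in the comparisons that follow, and every interval covers counting error only.

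The comparison of BLEO-WT with PBS-WT sets bleomycin against PBS in wild-type mice, where the number of sorted cells differed too. Cd209a, Clec9a and Siglech were lower in BLEO-WT, with log2 ratios of -1.42 (-1.48 to -1.36), -1.37 (-1.63 to -1.12) and -1.32 (-1.58 to -1.08). These 3 of the 9 genes were 2-fold or more lower, against 8.22% of all tested genes, and none was 2-fold higher, against 5.28%. They belong to different subsets, cDC2 or monocyte-derived cells, cDC1 and pDC. All 3 stayed past 2-fold after a correction for the GC content and length of transcripts, at -1.27 for Cd209a, -1.16 for Clec9a and -1.23 for Siglech. The other 6 genes lay between -0.25 for Zbtb46 and 0.45 for Fscn1, and the intervals of Flt3 at -0.07 and Batf3 at -0.11 include 0. Counted per Flt3 read, a measure that no scaling of libraries touches, Cd209a went from 3.12 reads in PBS-WT to 1.22 in BLEO-WT, Clec9a from 0.192 to 0.0776 and Siglech from 0.194 to 0.0811. The wild-type bleomycin library thus held fewer reads of these 3 genes for about the same Flt3 level.

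The sequences before the starts of these 3 genes are shown with that of Fscn1. Fscn1 had the highest log2 ratio of the 9 genes in that comparison, at 0.45, which is under 2-fold, and Itgae and Irf8 were above 0 too. Factors of the ETS, IRF and AP-1 families that act in dendritic cells bind short motifs in such sequences. Each window runs from 150 bases before to 20 after the start of a RefSeq transcript (GRCm38.p6) and is written 5′ to 3′ on the strand of the gene, with motif matches in capitals.
Cd209a, chr8:3748965-3749134, minus strand: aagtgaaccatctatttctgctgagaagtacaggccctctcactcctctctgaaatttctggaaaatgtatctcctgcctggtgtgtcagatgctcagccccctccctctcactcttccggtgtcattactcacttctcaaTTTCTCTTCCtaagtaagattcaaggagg
Siglech, chr7:55768034-55768203, plus strand: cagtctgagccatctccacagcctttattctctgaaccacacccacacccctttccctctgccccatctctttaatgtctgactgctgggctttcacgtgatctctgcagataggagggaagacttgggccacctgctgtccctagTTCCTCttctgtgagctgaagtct
Clec9a, chr6:129408712-129408881, plus strand: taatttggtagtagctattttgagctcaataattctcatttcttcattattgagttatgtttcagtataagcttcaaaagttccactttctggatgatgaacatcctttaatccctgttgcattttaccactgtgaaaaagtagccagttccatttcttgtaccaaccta
Fscn1, chr5:142960205-142960374, plus strand: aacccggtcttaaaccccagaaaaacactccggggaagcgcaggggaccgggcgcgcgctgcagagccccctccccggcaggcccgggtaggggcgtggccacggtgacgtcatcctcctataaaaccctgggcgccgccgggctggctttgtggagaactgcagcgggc
The motifs were searched on both strands of 300 bases around each start: the ETS motif GAGGAA, the IRF motif of GAAA, NN and GAAA, where N is any base, the composite ETS-IRF motif of GGAA, NN and GAAA, and the AP-1 motif TGANTCA, any of which may overlap another. The Cd209a window holds 1 composite ETS-IRF match, on the strand opposite to the gene, which 2.72% of 32817 promoters of that length hold. Siglech holds 1 ETS match, which 28.3% of promoters hold. Clec9a and Fscn1 hold no match to any of them, so the 3 genes that were lower share no motif among those searched. Of the other genes, Batf3 holds an ETS match and Zbtb46 an AP-1 match, which 7.81% of promoters hold, and Flt3 and Irf8 hold none. A match describes letters and shows no binding. The windows also differ in composition, with a GC content of 33.5% for Clec9a, 46.5% for Cd209a, 52.9% for Siglech and 68.8% for Fscn1.

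The comparison of BLEO-HPS1 with PBS-HPS1 sets bleomycin against PBS in Hps1-/- mice, again with different numbers of sorted cells. Fscn1 was higher in BLEO-HPS1 with a log2 ratio of 2.09 (2.04 to 2.15), Batf3 with 1.60 (1.46 to 1.74) and Itgae with 1.14 (1.06 to 1.21), and Clec9a was lower with -1.16 (-1.43 to -0.91). That makes 3 of 9 genes 2-fold or more higher against 26.2% of all tested genes, and 1 of 9 lower against 19.6%, shares not far from those of the whole table. Irf8 at 0.77 and Flt3 at 0.39 were above 0, and Cd209a at -0.67, Siglech at -0.57 and Zbtb46 at -0.28 below. The median of all genes was 0.25 in this comparison and moved to -0.43 with total counts as the only scaling. Relative to the median 5 of 9 lay above it under either scaling, as a change of scaling shifts all genes about alike. The number above was 5 after the GC and length correction and 6 without the filter on level. With total counts the genes 2-fold or more higher came to 1, Fscn1, against 9.06% of all genes, and those lower to 3, Clec9a, Cd209a and Siglech, against 34.5%. Once corrected for GC and length, Fscn1 was at 1.27, Itgae at 0.99, Batf3 at 0.36 and Clec9a at -0.53. Fscn1 was the only one of the 4 still past 2-fold. Batf3 and Fscn1 have the most GC-rich transcripts of the 9, at 60.7% and 60.6% against 44.2% to 51.7% for the others, and log2 ratios across all tested genes went with transcript GC content with a Spearman rho of 0.56 in this comparison.

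**Figure D2:**
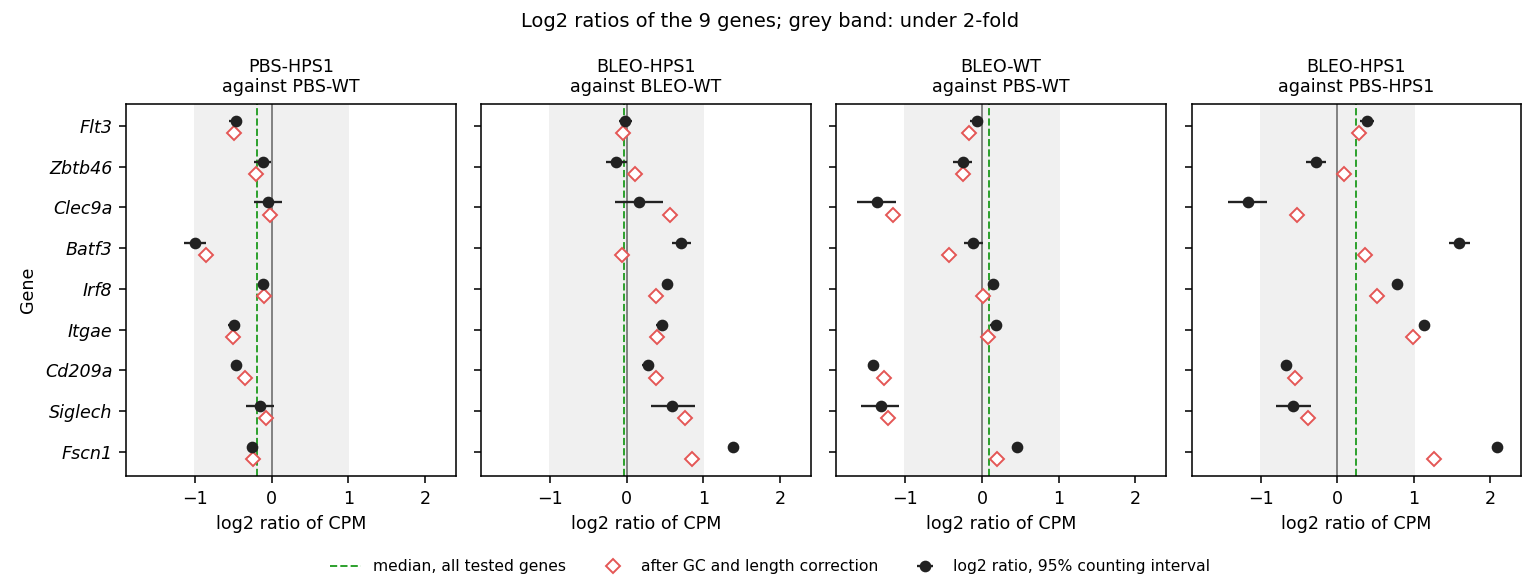
Log2 ratio of CPM (x axis) of each gene (y axis) in the 4 comparisons, as black points with 95% intervals from read counts, and after correction for transcript GC content and length as open red diamonds; the green dashed line is the median of all tested genes and the grey band marks less than 2-fold. Cd209a, Clec9a and Siglech lie left of the band in BLEO-WT against PBS-WT by both measures, whereas Batf3 moves from 1.60 to 0.36 in BLEO-HPS1 against PBS-HPS1.

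The comparison of BLEO-HPS1 with BLEO-WT sets the genotypes side by side after injury. Fscn1 was higher in BLEO-HPS1, with a log2 ratio of 1.38 (1.33 to 1.43), the only one of the 9 genes past 2-fold, against 6.72% of all tested genes. No gene was 2-fold lower, against 10.3%. Batf3 at 0.71 (0.59 to 0.84), Siglech at 0.59 (0.31 to 0.88), Irf8 at 0.52 (0.49 to 0.55) and Itgae at 0.46 (0.39 to 0.53) were above 0 without reaching 2-fold. Cd209a was at 0.28 (0.20 to 0.35) and Zbtb46 at -0.14 (-0.28 to -0.0030), while Clec9a at 0.16 and Flt3 at -0.02 had intervals that include 0. Once corrected for GC and length, Fscn1 was at 0.85, under 2-fold, and Batf3 at -0.06, while Irf8 at 0.38 and Siglech at 0.76 kept their direction and Zbtb46 turned to 0.11. The Spearman rho between log2 ratio and transcript GC content was 0.54 across all tested genes. Per Flt3 read, Fscn1 had 2.11 reads in wild-type and 5.57 in Hps1-/- mice, and Irf8 7.69 and 11.2.

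**Figure D3:**
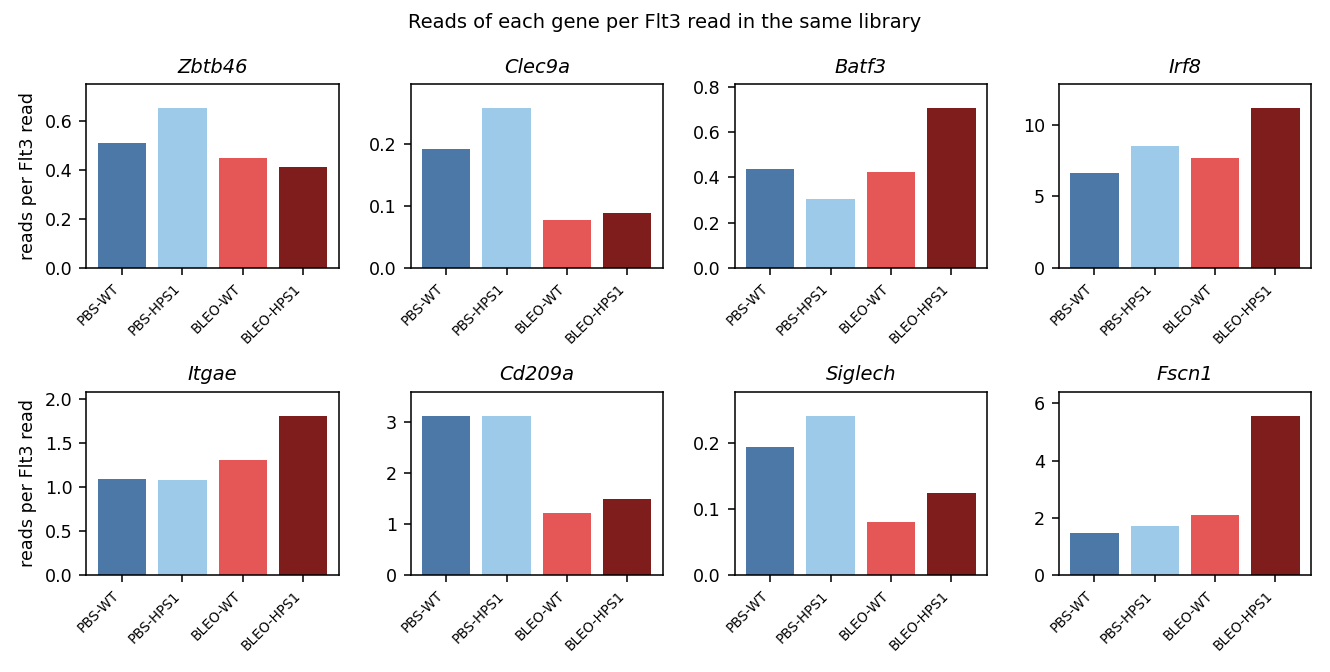
Reads of each gene per read of Flt3 in the same library (y axis, from 0), with 1 bar per library and a scale of its own in each panel. Cd209a stands at 3.12 in both PBS libraries and at 1.22 and 1.496 after bleomycin, and Fscn1 at 5.57 in BLEO-HPS1 against 1.47 to 2.11 elsewhere.

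Whether bleomycin acts differently in the genotypes is addressed by the difference of the bleomycin log2 ratios, Hps1-/- minus wild type, which draws on all 4 libraries and could not be tested. It was 1.71 (1.53 to 1.89) for Batf3, 1.64 (1.56 to 1.72) for Fscn1, 0.95 (0.84 to 1.06) for Itgae, 0.75 for Cd209a, 0.75 for Siglech, 0.63 for Irf8 and 0.45 for Flt3. For Clec9a at 0.21 and Zbtb46 at -0.03 the interval includes 0. The median of the 9 genes was 0.75 against 0.15 for all tested genes. With total counts as the only scaling these medians were 0.37 and -0.25, Clec9a was at -0.17 and Flt3 at 0.07. Under either scaling 8 of the 9 lay above the median of all genes, a count that scaling hardly alters because it shifts all genes about alike. After the GC and length correction all 9 lay above it. Once corrected for GC and length, the differences were 0.80 for Batf3, 1.07 for Fscn1 and 0.92 for Itgae, and those of Clec9a and Zbtb46 were larger at 0.63 and 0.33. For Batf3 the difference combines a log2 ratio between genotypes of 0.71 after bleomycin with -0.997 after PBS. The comparisons share libraries throughout, and their values are not independent of each other.

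**Figure D4:**
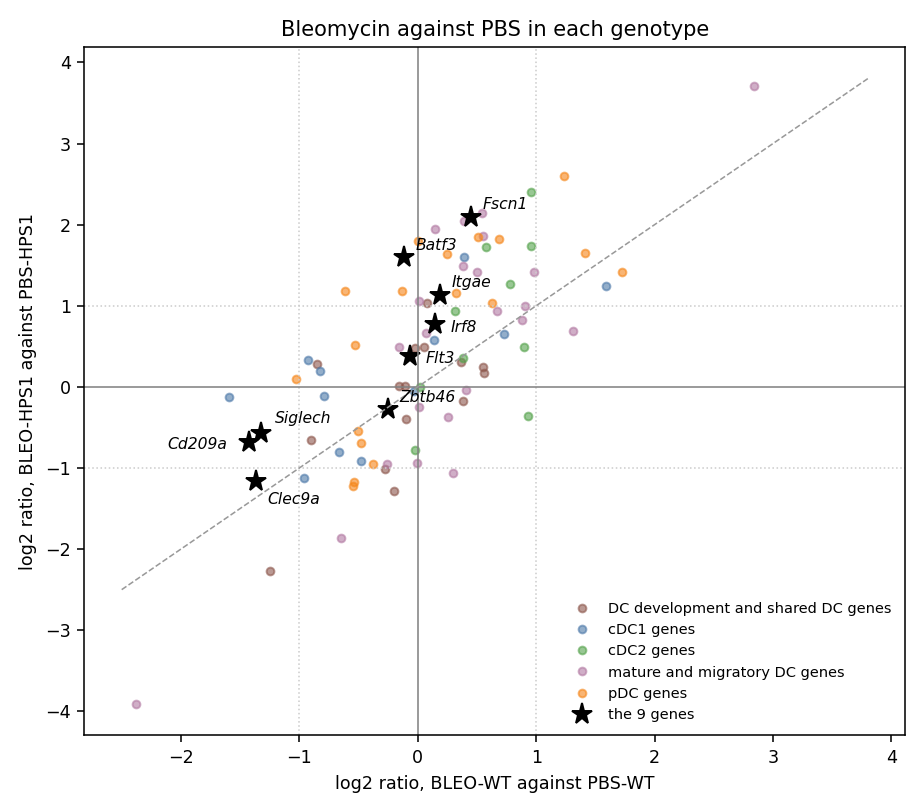
Log2 ratio with bleomycin in wild-type mice (x axis, BLEO-WT against PBS-WT) and in Hps1-/- mice (y axis, BLEO-HPS1 against PBS-HPS1) for the 9 genes (stars, named) and the tested genes of 5 other dendritic cell lists (coloured points); dotted lines mark 2-fold and the dashed line equal ratios. Batf3 and Fscn1 lie farthest above the dashed line among the 9, by 1.71 and 1.64, and Cd209a, Siglech and Clec9a lie left of the 2-fold line for wild type.

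Other genes of the same cells, from lists that do not include the 9, give the setting. Of 12 further cDC1 genes, 1 was 2-fold higher and 1 lower in BLEO-WT against PBS-WT, and 2 higher and 1 lower in BLEO-HPS1 against PBS-HPS1. Over all tested genes the shares were 5.28% higher and 8.22% lower in the former comparison and 26.2% and 19.6% in the latter, and they apply to each list that follows. Corrected for GC and length, the cDC1 counts were 1 higher and 2 lower, and 4 higher and 1 lower. The corrected shares of all tested genes were 5.11% higher and 5.92% lower in the former comparison and 17% and 8.93% in the latter. These too apply to the lists that follow. Xcr1, the chemokine receptor that defines cDC1, was at 3.54 CPM in PBS-WT, 2.09 CPM in PBS-HPS1, 1.85 CPM in BLEO-WT and 2.64 CPM in BLEO-HPS1, low in every library as Clec9a was, and was named after its values were seen. The pair named by their ratios in wild type were Rab7b, an endosomal GTPase, at 1.59 and Tlr11, an innate receptor for microbial profilin, at -1.59. In Hps1-/- mice the genes named were Snx22 at 1.60 (0.91 corrected), Rab7b at 1.25 and Clnk, an adaptor of signalling, at -1.13. Tlr11 and Clnk were near the filter, Tlr11 with 172 reads in PBS-WT and 56 in BLEO-WT and Clnk with 195 in PBS-HPS1 and 56 in BLEO-HPS1. Between the PBS libraries Ppt1, a lysosomal thioesterase, was at -1.48 and Tlr11 at -1.09. Before the correction no gene of the list was past 2-fold between the bleomycin libraries. After it 2 were higher, against 5.28% of all tested genes, and 0 lower. These were Ifi205 at 1.25 (0.56 uncorrected) and Xcr1 at 1.14 (0.51 uncorrected). Both were also among the 4 corrected higher genes in Hps1-/- mice, Ifi205 at 1.53 (-0.11 uncorrected) and Xcr1 at 1.51 (0.33 uncorrected). Ifi205 too was named after its values were seen. Xcr1 had 145 to 276 reads in a library and Ifi205 197 to 399.

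Of 10 tested cDC2 genes none was 2-fold higher or lower in BLEO-WT against PBS-WT, with a median log2 ratio of 0.68 against 0.09 for all tested genes, and 4 were higher and none lower in BLEO-HPS1 against PBS-HPS1, with a median of 0.71 against 0.25. The corrected medians were 0.67 and 1.1496, with 2 and 5 genes higher. The 4 were led by the C-type lectin genes Mgl2 at 2.398 and Clec10a at 1.74, which macrophages express as well. Cd209a, with -1.42 and -0.67 in these comparisons, lay on the other side of 0 from both medians with TMM factors. The other Cd209 genes of the cluster, which are alike in sequence, were low at 0.454 to 8.52 CPM, and how reads shared among them were counted is not given in the sources used here. Cd209d was at -1.09 (-0.92 corrected) between the PBS libraries, and Klf4, a factor that cDC2 share with monocytes, at -1.17 between the bleomycin libraries.

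Of 18 tested pDC genes 3 were 2-fold higher and 1 lower in BLEO-WT against PBS-WT, and 11 higher and 2 lower in BLEO-HPS1 against PBS-HPS1, where 26.2% and 19.6% of all genes were. Siglech, at -1.32 and -0.57, lay below the medians of these genes, which were -0.07 and 1.17. Zdhhc14 at 1.72 and Ptprs at 1.41 were highest and Cd300c at -1.02 lowest in wild type, and Smim5 at 2.60 and Bst2, the interferon-induced tetherin gene, at 1.84 were highest in Hps1-/- mice, where Rpgrip1 at -1.22 and Runx2 at -1.17 were lowest. Cd300c was near the filter, with 93 reads in PBS-WT and 45 in BLEO-WT. Corrected for GC content and length, 6 of these pDC genes were 2-fold higher and none lower in Hps1-/- mice, against 17% and 8.93% of all tested genes. Smim5 at 1.53 was still past 2-fold, while Bst2 at 0.70, Rpgrip1 at -0.44 and Runx2 at -0.65 were not. Between the bleomycin libraries Ly6d at 1.98 and Spib at 1.47, both also B cell genes, were higher and Tlr7, a sensor of single-stranded RNA, was lower at -1.26 (-0.63 corrected). The part of B cells in these values was not tested. Between the PBS libraries Smim5 was at -1.24 and Tlr9, a sensor of unmethylated DNA, at -1.20.

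Of 23 tested genes of mature and migratory dendritic cells 2 were 2-fold higher and 1 lower in BLEO-WT against PBS-WT, and 10 higher and 3 lower in BLEO-HPS1 against PBS-HPS1, where 26.2% and 19.6% of all genes were. The 10 became 7 after the GC and length correction, against 17% of all tested genes. Ccl17, a chemokine that attracts CCR4+ T cells, was at 27.0 CPM in PBS-WT, 21.7 CPM in PBS-HPS1, 193 CPM in BLEO-WT and 283 CPM in BLEO-HPS1, a log2 ratio of 2.84 in wild type and 3.70 in Hps1-/- mice. Lamp3, a lysosomal membrane gene of mature dendritic cells that alveolar type II cells express strongly, went the opposite way, at 20.1, 14.6, 3.85 and 0.9498 CPM in the same order, with -2.38 and -3.91. Corrected for GC and length, the ratios in wild-type and Hps1-/- mice were 2.70 and 2.69 for Ccl17 and -1.77 and -2.56 for Lamp3. Ccl17 was then at -0.10 between the bleomycin libraries. The part of other cells in the reads of Ccl17 and Lamp3 was not tested. Cd83 was at 1.31 in wild type. Cacnb3, a calcium channel subunit gene, was at 2.15 in Hps1-/- mice and 1.21 between the bleomycin libraries, where Nudt17 was at 1.14, and Cd274, which encodes the inhibitory ligand PD-L1, was at -1.86 and -1.47. Between the bleomycin libraries 3 genes of this list were 2-fold higher and 2 lower, against 6.72% and 10.3% of all tested genes. The correction left none of the 3, with Cacnb3 at 0.68 and Nudt17 at 0.80, and both of the lower genes. Corrected shares of all tested genes were 5.28% higher and 4.47% lower there.

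Of 15 genes of dendritic cell development none was 2-fold higher and 1, Ly75, was lower in BLEO-WT against PBS-WT at -1.25 (-0.94 corrected), where 8.22% of all genes were lower. In BLEO-HPS1 against PBS-HPS1 1 was higher and 3 were lower. Ly75, which encodes the endocytic receptor DEC-205, was at -2.27 there, Zeb2, a factor of pDC and cDC2 development, at -1.29 and Spi1, the myeloid factor PU.1, at 1.03. The correction kept Ly75 at -1.14 but turned Zeb2 to 0.61 and left Spi1 at 0.11. Zeb2 was at -1.51 (-0.62 corrected) between the bleomycin libraries and no gene of this list passed 2-fold between the PBS libraries.

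Among 169 genes of all lists with at least 1 CPM in some library, the genes whose levels followed the 9 most closely were found by the root mean square difference of centred log2 CPM over the 4 libraries. Fscn1 was nearest to Cacnb3 at 0.08 and Ccl22 at 0.13, both from the mature and migratory list, and then Klrg1 at 0.16. Ccl22, the partner chemokine of Ccl17, was at 49.1 and 40.6 CPM after PBS and at 71.8 and 148 CPM after bleomycin, wild type first in each pair. Flt3 was nearest to Cd200 at 0.05, Itgax, which encodes CD11c, at 0.07 and Sirpa at 0.14, and Irf8 to Wdfy4, a gene needed for cross-presentation, at 0.12, Relb at 0.12 and Hs3st1 at 0.13. Clec9a was nearest to the cDC1 gene Clnk at 0.16, then Il17rb at 0.19 and Kdr at 0.23. Both dendritic cell lists and lists of other cells supplied nearest genes of Clec9a, Irf8, Fscn1, Itgae, Batf3, Cd209a and Zbtb46. Those of Siglech came from lists of other cells only, and those of Flt3 from dendritic cell lists only. The share of each kind of list among the 169 genes was not set against these, so no leaning to either is read. Itgae lay nearest to Cd4 at 0.05, Spi1 at 0.09 and Pacsin1 at 0.09, and Batf3 to Cd4 at 0.18, Ebi3 at 0.18 and Fcgr4 at 0.18. Cd209a lay nearest to the endothelial genes Kdr at 0.20 and Emcn at 0.21 and to Dpp4 at 0.21, Siglech to Il17rb at 0.19 and the B cell genes Cr2 at 0.20 and Bank1 at 0.22, and Zbtb46 to Hey1 at 0.12, the endothelial gene Sox17 at 0.13 and Ikzf1 at 0.14. With 4 libraries such likeness is a description only. Within the 9 the closest were Cd209a and Siglech at 0.17, Itgae and Irf8 at 0.17 and Clec9a and Cd209a at 0.19.

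The marker genes of other cells also differed between the libraries, each list in its own way. The summed level of 12 macrophage genes was 15364 CPM in PBS-WT, 11273 CPM in PBS-HPS1, 22127 CPM in BLEO-WT and 20475 CPM in BLEO-HPS1, and that of 10 T cell genes 886, 693, 794 and 1395 CPM in the same order. The T cell sum with TMM factors, like those of monocyte and endothelial genes, was lowest in PBS-HPS1 and highest in BLEO-HPS1. The macrophage sum was lowest in PBS-HPS1 and highest in BLEO-WT. Sums of the lists were not computed under other scalings, and the order of the libraries may depend on the scaling. Among single genes Csf1r of monocytes ranged from 379 to 1603 CPM, Pecam1 of endothelium from 172 to 203 CPM and Col1a1 of fibroblasts from 38.2 to 982 CPM. The 8 monocyte genes summed to 1943, 1040, 2764 and 2936 CPM, and the 12 ILC2 genes to 782, 719, 589 and 827 CPM. Neutrophil genes stood highest in PBS-WT at 1603 CPM, against 461 CPM in PBS-HPS1, 873 CPM in BLEO-WT and 451 CPM in BLEO-HPS1, and NK and ILC1 genes ranged from 88.5 CPM in BLEO-WT to 284 CPM in BLEO-HPS1. Among the gate genes Thy1 ranged from 206 to 551 CPM, Icos from 32.1 to 79.9 CPM and Il1rl1 from 23.8 to 40.9 CPM. The part of any of these cells in the levels of the 9 genes was not tested.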

How the data were processed

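RNA of lung ILC2 sorts from 4 groups, with 1 library each, was prepared with a SMARTER mRNA-Seq kit and sequenced. The authors deposited raw counts of reads per gene, as whole numbers with no normalization. The aligner, counter, genome build and strand setting are not given in the sources used here. The table has 49315 genes, of which 37499 had a read, and 48970 IDs matched the GRCm38 annotation (GENCODE), which supplied overlaps and transcript GC content and length. Rows without a symbol held 0.00556% of reads.

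Counts were scaled with TMM factors by edgeR 4.0.16 (R 4.3.3), at 1.08 and 1.27 for the PBS libraries of WT and HPS1 and 0.895 and 0.816 for those after bleomycin, and log2 ratios were taken with a prior count of 2 over 14840 genes with at least 1 CPM in at least 1 library. edgeR's quasi-likelihood test of single groups against each other needs replicates and could not be run. An additive model of genotype and treatment over all libraries was not fitted. A gene counted as called when at least 2-fold different. Intervals of ratios are exact Clopper-Pearson 95% intervals from the reads, those of differences of ratios are normal, and both cover counting error only. The scripts were tested on simulated data. The correction for GC content and length was a loess fit with a span of 0.3 on the 99.8% of tested genes with both values. Other alternatives were DESeq2 1.42.0 size factors, total counts, upper-quartile factors, TMM without immunoglobulin genes, other prior counts, filters and thresholds. Figures were drawn with matplotlib 3.10.9.

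The 9 genes and all lists were chosen with earlier results of these data known. Named were the 9 genes, from each dendritic cell list up to 2 genes with the highest and 2 with the lowest ratio past 2-fold in each comparison, the nearest 3 list genes to each of the 9, and summed levels with selected genes of the other cell types. Promoter sequences came from RefSeq (GRCm38.p6), which gave entries for 8 of the 9 genes. Itgae was not matched. A marker gene of another cell type and the summed level that includes it are not reported here.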

Additional observations from a re-analysis of the deposited data

Results flagged for a closer look

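Flt3 and Batf3 had bleomycin log2 ratios of opposite sign in the genotypes, with 1 library on each side, and the difference was not tested. For Flt3 the ratio was -0.07 in wild type and 0.39 in Hps1-/- mice, a difference of 0.45. For Batf3 it was -0.11 and 1.60, a difference of 1.71. In wild type the counting interval of either gene includes 0. With total counts as the only scaling Flt3 was at -0.33 and -0.26, with no change of sign between genotypes.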

How the results depend on the processing

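Of 36 log2 ratios of the 9 genes, 25 kept their direction under every alternative tried and 11 changed it under some. In BLEO-WT against PBS-WT the ratio ranged from -1.69 to -1.27 for Cd209a, -1.63 to -1.16 for Clec9a and -1.58 to -1.23 for Siglech, and Fscn1 ranged from 1.27 to 2.10 in BLEO-HPS1 against PBS-HPS1. At a 4-fold threshold the 3 genes lower in BLEO-WT against PBS-WT became 0, where 1.82% of all tested genes were lower. In BLEO-HPS1 against BLEO-WT the 1 higher gene became 0 after the GC and length correction, 0 at 4-fold and 3 at 1.5-fold. The shares of all tested genes there were 5.28%, 1.5% and 19.4%. In BLEO-HPS1 against PBS-HPS1 the 3 higher genes became 1 with total counts, 1 after the GC and length correction and 1 at 4-fold. Of all tested genes 9.06%, 17% and 4.37% were higher under these settings. The 1 lower gene became 3 with total counts, 0 after the GC and length correction, 0 at 4-fold and 2 at 1.5-fold. Here 34.5%, 8.93%, 5.49% and 28.1% of all tested genes were lower. At 1.5-fold 1 gene was lower in PBS-HPS1 against PBS-WT, as were 9.8% of all tested genes. With total counts the share of higher among all genes called went from 57.2% to 20.8% in BLEO-HPS1 against PBS-HPS1, from 39.5% to 24.9% in BLEO-HPS1 against BLEO-WT, from 39.1% to 19.1% in BLEO-WT against PBS-WT and from 41.0% to 68.4% in PBS-HPS1 against PBS-WT. Without the TMM factors the median log2 ratio of all tested genes moved from 0.25 to -0.43 in BLEO-HPS1 against PBS-HPS1. Why the factors differed between libraries was not tested. Leaving out a library was not possible with 1 per group. No paired analysis was possible because each group holds 1 library with no shared replicate. Depth limits Clec9a and Siglech most, with 161 to 567 reads in a library.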
